A study of Mus musculus with 12 samples.

Results

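Nfil3 (Entrez gene 18030, also called E4bp4) was taken from the deposited workbook by its symbol and is 1 gene of the 547 on a NanoString panel, in which barcoded probes count RNA molecules without amplification. It was chosen by its levels in the 4 groups described here, so its own differences are given as a description with a standard error (SE) and with no test. The series compared mice lacking SphK2, a kinase that makes sphingosine 1-phosphate, with wild-type mice in a model of early diet-induced steatohepatitis. All mice were male, of the C57BL6-NJ background, and the knockout was constitutive, so every cell type lacked the gene. There were 4 groups of 3 libraries. Knockout mice on a Western diet with sugar water (KO, Western diet) were labelled 217 to 252 days old and wild-type mice on it (WT, Western diet) 226 to 232 days. Knockout mice on a control diet with normal water (KO, control diet) were 250 to 259 days old and wild-type mice on it (WT, control diet) 231 to 232 days. The protocol gives 16 weeks on the diets. The duration labels of single mice run from 16 to 27 weeks. They rise by 1 week per mouse in deposited order, across the groups, and were not used. Of the knockout mice, 4 (3 on the control, 1 on the Western diet) were labelled older than the latest start plus 16 weeks allows. The time on diet is therefore not settled. The series title names the liver, and all 10 hepatocyte markers on the panel had at least 775 counts in every library. Neither Sphk2 nor Sphk1 was on the panel, so the loss of its RNA was not checked. The sources used here give no hour at which tissue was taken.

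NFIL3 is a basic leucine zipper repressor. It binds the D-box, the DNA element that the activators DBP, TEF and HLF use, and its own gene is repressed by the REV-ERB receptors, which ties its level to the time of day and to feeding in the liver. In immune cells it is induced by cytokines and is required for natural killer (NK) and innate lymphoid cell development.

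The 12 libraries did not behave as 12 separate mice. In each group the library numbered 3 lay close to the mean of the libraries numbered 1 and 2 for most genes. Where libraries 1 and 2 differed by more than 0.5 on the log2 scale, among genes with at least 100 recovered counts in all 3, library 3 lay between them for 126 of 126 genes over the 4 groups. For the other 8 libraries, each set against the remaining pair of its group, this held for 7 of 95 genes. A fit of library 3 on libraries 1 and 2 gave them weights of 0.43 to 0.58, and the same fit for the other libraries gave weights of -0.83 to 1.87. The labels give each of the 4 libraries an animal and an age of its own, and how they came to lie there was not tested. The number of independent samples in a group may therefore be 2. SDs and SEs over 3 libraries and p-values over 12 libraries are too small to the extent that this is so, and the differences of Nfil3, the counts of calls and the genes called are given also with the 4 libraries numbered 3 left out (8 libraries), a choice made after seeing the data. Over all 453 genes tested, 161, 13, 205 and 39 genes were called with 12 libraries (KO minus WT on the Western diet, KO minus WT on the control diet, Western minus control diet in KO, and Western minus control diet in WT), against 1, 1, 62 and 0 with 8.

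**Figure D1:**
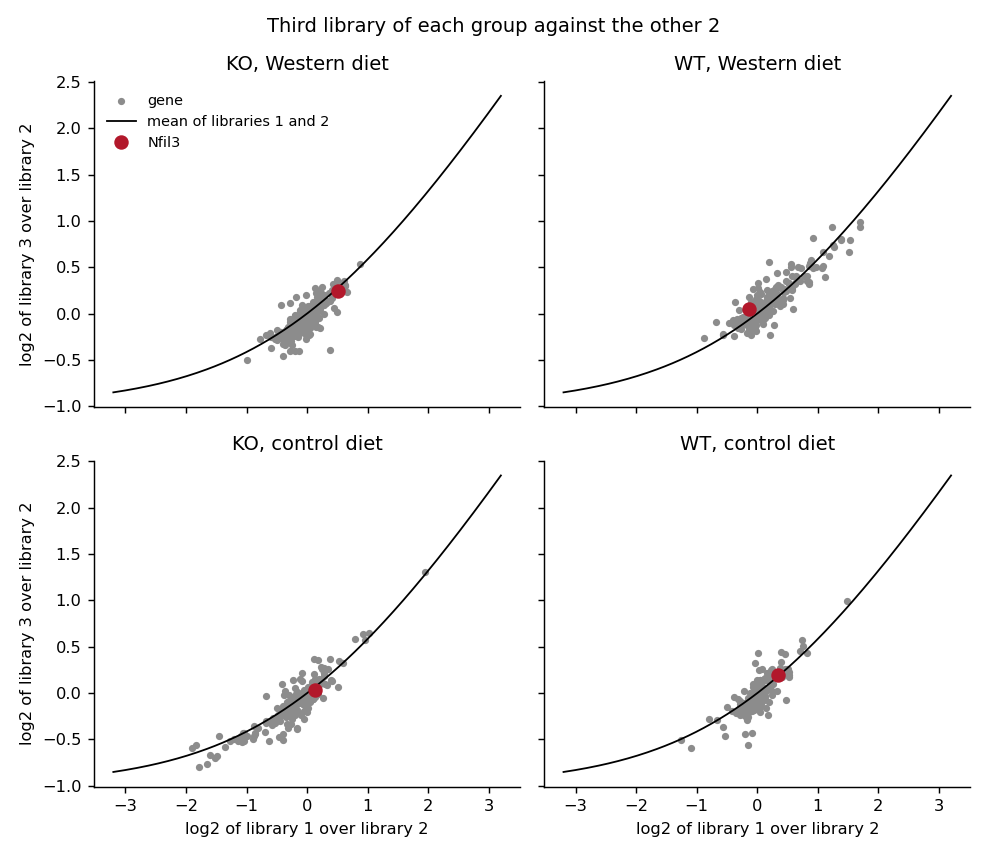
Each point is a gene with at least 100 recovered counts in all 3 libraries of a group; the x axis is the log2 ratio of library 1 to library 2 and the y axis that of library 3 to library 2, and the line marks where library 3 equals the mean of the others. In the 4 groups the points follow the line, and Nfil3, in red, lies near it, at 97.8% to 108% of the mean of libraries 1 and 2.

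Nfil3 lies on chromosome 13 (GRCm38.p6, chr13:52967209-52982878, minus strand). The RefSeq promoter table takes as its start a transcript that begins 1839 bases inside this span, so the 250 bases before it (chr13:52981040-52981289) lie within the gene as annotated. They are printed because they carry the core element that the REV-ERB receptors bind, with those of Cxcl13 (chr5:95956689-95956938, plus strand), the gene whose level followed Nfil3 most closely. Sequences are from RefSeq, 5′ to 3′ on the gene's strand, and capitals mark TGACCTA, the reverse complement of the core TAGGTCA.
Nfil3: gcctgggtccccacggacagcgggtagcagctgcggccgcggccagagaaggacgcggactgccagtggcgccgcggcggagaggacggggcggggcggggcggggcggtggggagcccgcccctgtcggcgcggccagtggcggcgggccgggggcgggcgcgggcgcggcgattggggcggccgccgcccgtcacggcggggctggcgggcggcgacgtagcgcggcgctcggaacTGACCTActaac
Cxcl13: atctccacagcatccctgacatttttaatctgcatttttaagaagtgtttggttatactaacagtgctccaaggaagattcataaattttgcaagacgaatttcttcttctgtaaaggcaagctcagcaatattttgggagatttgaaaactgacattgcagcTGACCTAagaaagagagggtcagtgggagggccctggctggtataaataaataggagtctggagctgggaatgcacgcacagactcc
Both strands were searched. The core lay 12 to 6 bases before this start of Nfil3 and 87 to 81 bases before that of Cxcl13. It was found in 2.23% of 32851 promoter windows of this length, and in 8 of the 341 tested genes with a window (2.35%). The Nfil3 window was 81.6% G and C, against a median of 52.4% over all windows. The D-box TTANGTAA was in 2.06% of windows and in neither of these, nor in the windows of the other genes whose level was most or least like that of Nfil3 (Cd83 has no window in the table). The Nfil3 window also held a CRE half-site (TGACG, in 17.8% of windows) and an inverted CCAAT box (ATTGG, in 33.8%), and no match to the STAT site TTCNNNGAA or the E-box CACGTG. These are matches of letters and not measured binding.

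Nfil3 was highest in knockout mice on the control diet, next in wild-type mice on the control diet, and lowest on the Western diet in either genotype. It was measured at 328, 231 and 274 normalized counts in KO, Western diet, and at 220, 242 and 249 in WT, Western diet. On the control diet it was at 876, 803 and 821 normalized counts in KO and at 557, 440 and 504 in WT. Every control-diet library was above every Western-diet library, and on the control diet every knockout library was above every wild-type library, whereas on the Western diet the genotypes overlapped. The means were 278 ± 48.7 in KO, Western diet, 237 ± 15.4 in WT, Western diet, 833 ± 38.0 in KO, control diet, and 500.3 ± 58.6 in WT, control diet (SD, n = 3 each). Over libraries 1 and 2 alone the means were 279.6, 231, 839 and 498 normalized counts in the same order (n = 2 each). The neighbours in this order that did not differ beyond their spread were the Western-diet groups. These values rest on 221 to 833 recovered counts per library, with a counting error of 3.46% to 6.73%.

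**Figure D2:**
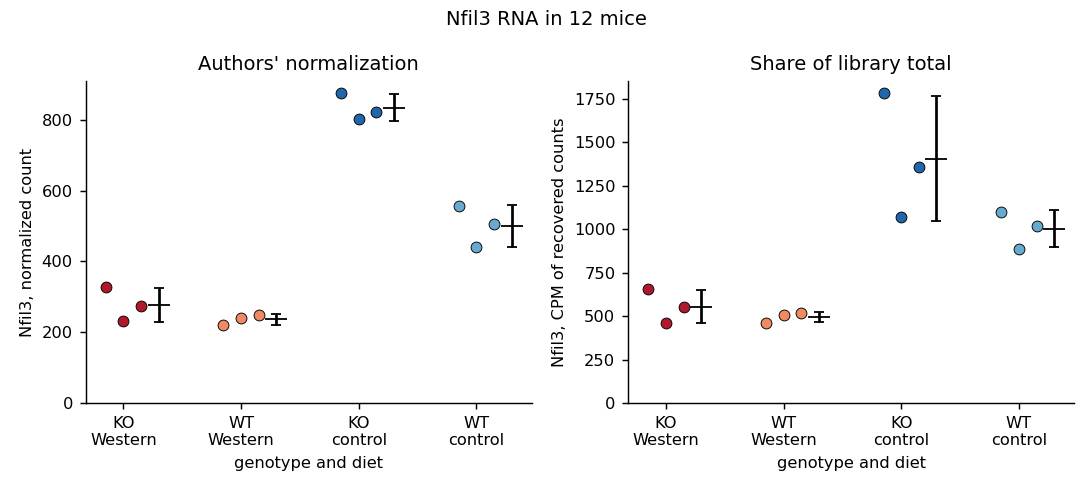
Nfil3 in each of the 12 libraries by genotype and diet, as normalized counts in the authors' scaling (left) and CPM, recovered counts per 1000000 of the library total (right); points are libraries numbered 1 to 3 from left to right and bars the mean ± SD. The control-diet libraries lie above the Western-diet ones in both panels, and the control-diet genotypes separate on the left (803 to 876 in KO, 440 to 557 in WT) and overlap on the right (1073 to 1786 in KO, 888 to 1100 in WT).

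The largest differences of Nfil3 were between diets. In knockout mice the Western diet minus control diet difference was -1.60 on the log2 scale (SE 0.13), so that Nfil3 on the Western diet stood at 0.331 of its control-diet level. Only 2 of the 453 genes tested had a lower difference, and the median gene was at 0.27. In wild-type mice the diet difference was -1.07 (SE 0.13), or 0.476 of the control-diet level, again with only 2 genes lower and a median gene at 0.09. With 8 libraries the differences were -1.60 and -1.10 (SE 0.21 each) and the ranks were the same. Knockout mice were labelled 217 to 252 days old on the Western and 250 to 259 days on the control diet. Age and diet can therefore hardly be told apart in KO. With age as a covariate the differences were -1.54 in KO and -1.06 in WT. That fit called 74 of all genes higher and 18 lower between diets in KO, against 169 and 36 without age. Under the 4 other scalings tried the sign stayed, at -2.32 to -1.32 in KO and -1.35 to -1.005 in WT; with the deposited value table, whose columns hold the workbook's values moved by 1 animal, it turned, to 0.68 and 0.16. Relative to the median gene Nfil3 was at -1.86 in KO and -1.16 in WT in the authors' scaling, which recentring cannot alter, and at -1.99 and -1.09 after quantile normalization. The libraries did not overlap, the Western diet being lower, for 12.1% of tested genes in KO and for 12.1% in WT, and nothing is read from Nfil3 being among them. The summed level of the 10 hepatocyte markers was also lower on the Western diet. It was 52879 to 67050 normalized counts in KO, Western diet, against 77203 to 149497 in KO, control diet, and 59851 to 76305 in WT, Western diet, against 80310 to 92437 in WT, control diet. With 12 libraries 7 of the 10 were called lower in KO and 1 in WT, where 7.95% and 3.75% of all genes were. With 8 libraries 1 and 0 were, where 13.7% and 0.00% of all genes were called in either direction. Hamp is 1 of the 10, and the libraries of C9, C6 and Mbl2 overlapped between diets in both genotypes. The part of hepatocyte RNA in the difference of Nfil3 was not tested, and in whole tissue fewer cells of a type and less RNA per cell cannot be told apart.

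Between genotypes, Nfil3 differed on the control diet. The KO minus WT difference there was 0.74 (SE 0.13), a ratio of 1.67, the 16th highest of 453 genes against a median of 0.07. With 8 libraries it was 0.76 (SE 0.21), the 19th highest. On the CPM scale (recovered counts per 1000000 of the library total) it was 0.46, and the libraries overlapped there. The libraries did not overlap, KO being higher, for 16.1% of tested genes. Knockout mice on this diet were labelled 250 to 259 days old and wild-type mice 231 to 232 days, and with age as a covariate the difference was 0.69. That fit takes its age slope from ages within groups, which spread most in KO, Western diet (217 to 252 days). Ages of the genotypes do not overlap on the control diet, so age and genotype cannot be told apart there. On the Western diet the KO minus WT difference was 0.22 (SE 0.13), 215th from the lowest of 453, near the median gene at 0.26. It was 0.26 (SE 0.21) with 8 libraries, and it was -0.35, -0.037 and -0.22 after recentring on the sample median, on the median ratio and after quantile normalization, so no direction is given for it. In the authors' deposited table, whose single SK2 against WT comparison follows the Western-diet difference, Nfil3 has a log2 fold change of 0.25, a p-value of 0.354 and an adjusted p of 0.45.

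The diet difference in KO minus that in WT was -0.52 (SE 0.18), 27th from the lowest of 453, against a median of 0.21. It was -0.50 (SE 0.29) with 8 libraries and -0.97 to -0.31 under the other scalings.

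**Figure D3:**
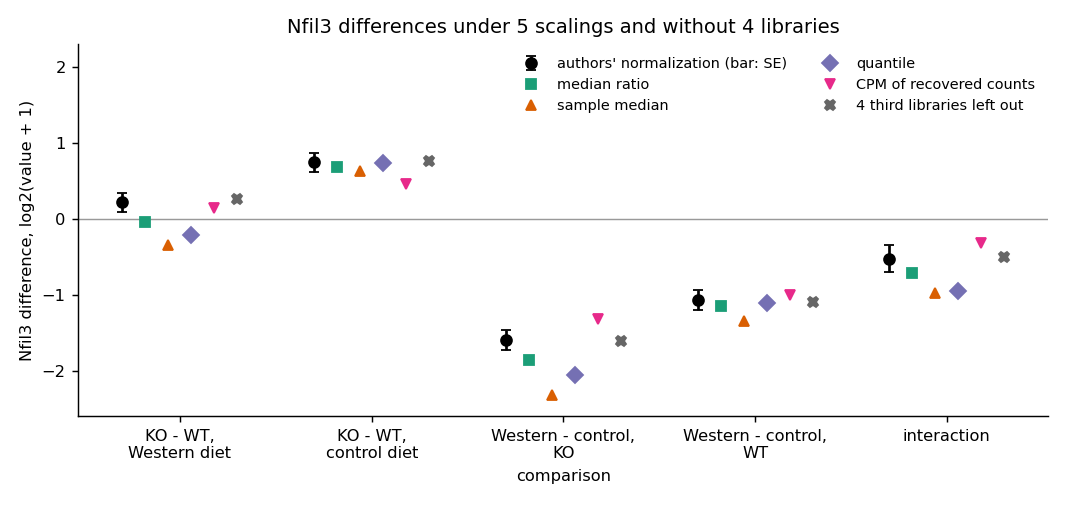
The log2 difference of Nfil3 in each comparison, in the authors' scaling (circles, with SE), under 4 other scalings and with 8 libraries (crosses). The KO minus WT difference on the Western diet lies on either side of 0 (-0.35 to 0.26), whereas the other comparisons keep 1 sign in all settings drawn.

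The gene with the level most like Nfil3 was Cxcl13, a chemokine that draws B cells. Its Pearson r with Nfil3 over 12 libraries was 0.96, with a Spearman rho of 0.96, and r was 0.96 over 8. Cxcl13 was at 36.1, 17.6 and 27.0 normalized counts in KO, Western diet, at 24.8, 30.6 and 27.2 in WT, Western diet, at 99.9, 86.8 and 65.2 in KO, control diet, and at 58.4, 38.1 and 54.2 in WT, control diet. It too was highest in KO, control diet and next in WT, control diet, and the genotypes overlapped on the Western diet. These correlations are descriptions across libraries that share 4 groups, and much of each r comes from the group means.

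Next came Pigr, the receptor that carries IgA across epithelium (r = 0.93), C8b, a terminal complement subunit made by hepatocytes (0.91), Marco, a scavenger receptor of resident macrophages (0.87), Stat3, the transcription factor of interleukin 6 signalling (0.86), and Ikbkg, the regulatory subunit of the IκB kinase (0.85). Of the 6 genes, 5 were still among the 6 highest over 8 libraries, Ikbkg being 8th. Marco followed Nfil3 within each diet as well, with r of 0.87 over the 6 Western-diet libraries and 0.95 over the 6 control-diet libraries. It was at 169, 79.5 and 127 normalized counts in KO, Western diet, at 83.5, 67.3 and 71.9 in WT, Western diet, at 218, 240.0 and 228 in KO, control diet, and at 164, 91.8 and 134 in WT, control diet. C8b did so less, with r of 0.48 on the Western and 0.46 on the control diet, and Ikbkg had r of 0.66 and -0.05. Pigr had r of 0.48 and 0.79, and Stat3 of 0.35 and 0.84. For deviations from the group means r was -0.08 for Stat3 and 0.13 for Pigr. It was 0.34 for Ikbkg, 0.47 for C8b and 0.82 for Marco. Of 452 other tested genes, 12 had an r of at least 0.8 and 6 an r of at most -0.8, and the median was -0.23. Leaving out the 2 libraries farthest from the median of Nfil3, both of them KO, control diet, gave r of 0.95 for Cxcl13, 0.95 for Pigr, 0.97 for C8b, 0.81 for Marco, 0.82 for Stat3 and 0.77 for Ikbkg.

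The genes least like Nfil3 were Cfd (adipsin, a complement protease of adipocytes, r = -0.93), Bst2 (tetherin, an interferon-induced antiviral protein, -0.90) and Cd83 (a marker of activated dendritic and B cells, -0.89). Cfd was at 234, 293 and 262 normalized counts in KO, Western diet, at 281, 296 and 290 in WT, Western diet, at 27.3, 21.7 and 22.7 in KO, control diet, and at 99.3, 237 and 167 in WT, control diet. It was lowest in the group where Nfil3 was highest. Over 8 libraries Cfd alone of these stayed among the 3 lowest, with r of -0.93, against -0.87 for Bst2 and -0.87 for Cd83. Within diets Cfd kept this relation, with r of -0.90 over the 6 Western-diet and -0.98 over the 6 control-diet libraries. Bst2 did not, with r of 0.83 on the Western and -0.70 on the control diet and 0.44 for deviations from the group means, and Cd83 had r of -0.06 and -0.58. The r of Bst2 depended on the scaling and was 0.10 after recentring on the sample median.

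Deviations from the group means were most alike for Cxcl13 (r = 0.89), Bcl6 (0.85), a repressor of lymphocyte and liver metabolic genes, and H2-K1 (0.84), an MHC class I heavy chain. Since library 3 sits near the mean of the others, these deviations come mainly from 1 pair of libraries per group, and r rests on few independent points. Bcl6 shows it: it was at 393, 60.1 and 222 normalized counts in KO, Western diet, at 79.5, 40.8 and 67.5 in WT, Western diet, at 248, 119 and 189 in KO, control diet, and at 333, 60.4 and 215 in WT, control diet. In the 4 groups library 2 was the lowest for Bcl6, and for Nfil3 this held in 3 of them, WT, Western diet being the exception.

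**Figure D4:**
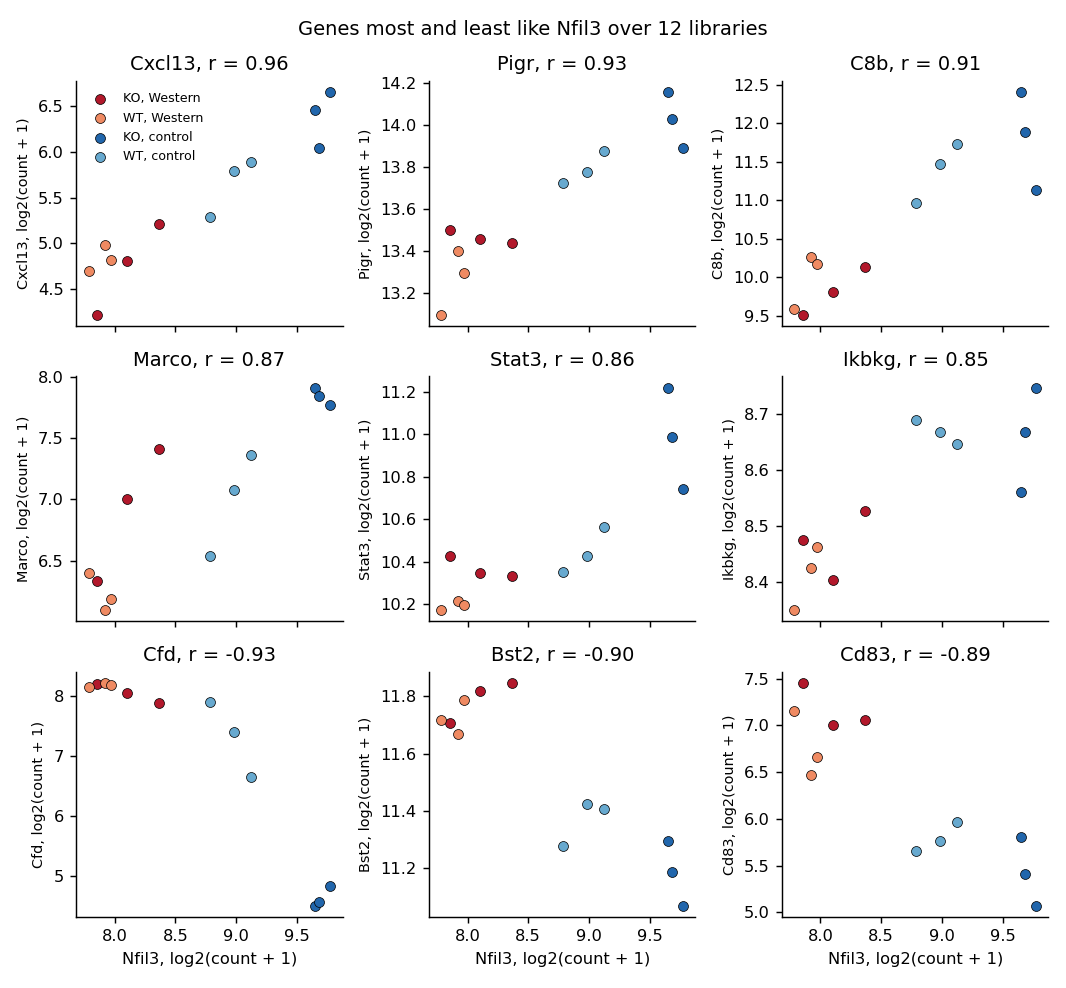
Level of the 6 genes most like Nfil3 and the 3 least like it (y axis, log2(normalized count + 1)) against Nfil3 (x axis, same scale) in 12 libraries, coloured by group, with Pearson r above each panel (0.96 for Cxcl13 to 0.85 for Ikbkg, and -0.93 to -0.89 for the others). In most panels the diets form separate clouds; within each diet Cxcl13 and Marco slope up (r of 0.70 to 0.95), Cfd slopes down (-0.98 and -0.90), and Bst2 slopes up on the Western and down on the control diet (0.83 and -0.70).

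Only a part of the genes listed around NFIL3, as its inputs, partners or targets, was measured. Of 9 reported targets listed, 7 were on the panel and 4 were tested. Of 119 genes listed as clock factors, cytokine and STAT inputs, NK and innate lymphoid regulators, reported NFIL3 targets, leucine zipper factors and stress response genes, 56 were on the panel and 48 were tested. Of the 21 clock and D-box factors, among them Dbp, Tef, Hlf, the REV-ERB genes, Arntl, Clock and the Per and Cry genes, none was on it, so the clock state of these livers could not be read. Id2 and Nr3c1 were not on the panel, and Tbx21 and Gata3 were measured under the minimum of 20 normalized counts.

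Stat3 had its highest level where Nfil3 did, at 1711, 2386 and 2032 normalized counts in KO, control diet, against 1514, 1305 and 1376 in WT, control diet. On the Western diet it was at 1290, 1377 and 1302 in KO and at 1153, 1187 and 1175 in WT. The KO minus WT difference was 0.54 on the control diet (limma, adjusted p = 0.0147 with 12 libraries and 0.671 with 8) and 0.17 on the Western diet (adjusted p = 0.225 and 0.505). The Western minus control diet difference was -0.61 in KO (adjusted p = 0.000745 with 12 and 0.0615 with 8) and -0.25 in WT (adjusted p = 0.168 and 0.643). Il6st, the signalling chain of the interleukin 6 receptor, differed by 0.45 between genotypes on the control diet (adjusted p = 0.0226 with 12 and 0.703 with 8). Il6ra, its ligand-binding chain, and Socs3, the feedback inhibitor that STAT3 induces, were not called in any comparison. The control-diet genotype calls of Stat3 and Il6st were lost after recentring on the sample median, with voom, on the CPM scale and with an equal-variance test. They were also lost with age as a covariate, and ages of the genotypes do not overlap on this diet. Leaving out 1 library lost the call in 3 cases for Stat3 and in 5 for Il6st. Cebpb, an acute phase factor of the same zipper class, was at 1510, 4237 and 2655 normalized counts in KO, control diet, against 902, 1428 and 1167 in WT, control diet, with a difference of 1.17 (adjusted p = 0.0561 with 12 and 0.878 with 8); its KO, control diet libraries spread more than those of Nfil3.

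Among the 27 tested genes of cytokine and STAT input, 7 were called higher in KO than in WT on the Western diet and none lower with 12 libraries, and none was called with 8. With 12 libraries 35.5% of all genes tested were called there, 32.2% higher and 3.31% lower, and with 8 libraries 0.221%. The members with the smallest p were Stat5b (0.33), Il10ra, an interleukin 10 receptor chain (0.85), Il10rb, its partner (0.69), and Il4ra (0.32), with adjusted p by limma of 0.00606, 0.0102, 0.013 and 0.0139 with 12 libraries. None of these members was called there after recentring on the sample median or after quantile normalization. On the control diet 2 of 27 were called, Stat3 and Il6st, both higher, where 2.87% of all genes were called, 1.99% higher and 0.883% lower. None of the 27 was called there with 8 libraries, where 0.221% of all genes were. In KO, the diets differed for 4 members that were higher and 1, Stat3, that was lower on the Western diet, against 45.3% of all genes called, 37.3% higher and 7.95% lower. Il10ra and Jak2, a cytokine receptor kinase, rose in KO on the Western diet with 12 and with 8 libraries, where 13.7% of all genes were called with 8. Il10ra was at 121, 118 and 100.4 normalized counts in KO, Western diet, against 49.4, 54.9 and 49.4 in KO, control diet (difference 1.13, adjusted p = 0.000953 with 12 and 0.0369 with 8). Jak2 was at 384, 402 and 368 against 270.2, 277 and 279 (difference 0.48, adjusted p = 0.000565 and 0.0416). In KO both were higher on the diet where Nfil3 was lower. In WT, where Nfil3 was also lower on the Western diet, the libraries of Il10ra and of Jak2 overlapped between diets. The calls depended on the scaling: neither gene was called after recentring on the sample median or quantile normalization, Jak2 also not after recentring on the median ratio, and the difference of Jak2 turned negative with the sample median. Summed macrophage and monocyte markers were at 7069 to 8025 normalized counts in KO, Western diet, against 3666 to 4291 in KO, control diet. Of the 11 markers summed, 9 were called higher on the Western diet with 12 libraries and 2, Marco and Cd163, lower. With 8 libraries 2 were called higher and 0 lower. The part of such cells in the rise of Il10ra and Jak2 was not tested. In WT, where 8.61% of all genes were called with 12 libraries (4.86% higher and 3.75% lower) and 0.00% with 8, the diets differed for 1 of the 27, Cish, a STAT5-induced inhibitor (difference 1.66, adjusted p = 0.0243 with 12 and 0.472 with 8). Il15 and Il7r, a cytokine and a receptor on which NK and lymphoid cells depend, were at 30.7 to 58.2 and 27.3 to 60.1 normalized counts over the 12 libraries and were called in no comparison.

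Among 10 tested NK and innate lymphoid regulators, 3 were called higher in KO than in WT on the Western diet, and 4 higher on the Western than on the control diet in KO, with 12 libraries and none lower in either. These 3 of 10 and 4 of 10 stand against 35.5% and 45.3% of all genes called. Those called between genotypes were Ets1 (0.36), Ikzf1 (0.83) and Notch1 (0.63), with adjusted p by limma of 0.00606 to 0.0235, against 0.151 to 0.197 with 8 libraries. None of the 3 was called there after recentring on the sample median or the median ratio or after quantile normalization. Those called in the diet comparison were Ets1 (0.55), Notch1 (0.60), Runx1 (1.36) and Ikzf1 (0.91), with adjusted p of 0.00163 to 0.00844. With 8 libraries their adjusted p was 0.065 to 0.11. Of these only Runx1 stayed called after recentring on the sample median, where the differences of Ets1 and Notch1 turned negative. Notch1 and Ikzf1 were also lost after quantile normalization, and Notch1 after the median ratio. With age as a covariate only Ets1 of these stayed called. Markers of some immune cells were higher in the same libraries. Summed NK cell markers (8 of 10 on the panel) were at 394 to 431 normalized counts in KO, Western diet, against 237 to 323 in WT, Western diet, and 291 to 327 in KO, control diet, and summed B cell markers (8 of 8) at 360 to 416, against 228 to 307 and 217 to 266. The macrophage and monocyte sums (11 of 15) were at 7069 to 8025, against 2996 to 5499 and 3666 to 4291. Of these 11 markers, 9 were called higher and 1 lower between genotypes on the Western diet with 12 libraries. Between diets in KO 9 were called higher and 2, Marco and Cd163, lower. The T cell sums (9 of 10) overlapped in both comparisons, at 235 to 297, against 203 to 271 and 238 to 269. The neutrophil sums (5 of 8), at 802 to 851, were above WT, Western diet (219 to 385) and overlapped KO, control diet (301 to 959). The part of these cells in the differences was not tested. In WT, Ahr (-0.45) and Notch2 (-0.30) were called lower on the Western diet with 12 libraries and not with 8. There 3.75% of all genes were called lower and 4.86% higher with 12 libraries, and 0.00% with 8. Neither Ahr nor Notch2 was called after quantile normalization, with age as a covariate, with voom or on the CPM scale. None of the 10 was called between genotypes on the control diet, where 2.87% of all genes were with 12 libraries. Eomes, the NK cell T-box factor, was at 14.6 to 35.2 normalized counts over the 12 libraries and was called in no comparison. Of the reported NFIL3 targets 4 of 7 on the panel were tested. None was called in any comparison by limma with 12 libraries (1 at an unadjusted p under 0.05, in the diet comparison in KO) or with 8. Of all genes 35.5% and 2.87% were called with 12 libraries between genotypes on the Western and the control diet. Between diets it was 45.3% in KO and 8.61% in WT. Nothing is read from the absence of calls among 4 genes. Il12b was at 19.0 to 46.8 and Il10 at 17.9 to 33.2 normalized counts.

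Of leucine zipper factors 5 were tested. Batf, a partner of IRF4 in lymphocytes, was at 265, 285 and 249 normalized counts in KO, Western diet, against 203, 172 and 209 in KO, control diet, and at 246, 231 and 212 in WT, Western diet, against 160, 180.2 and 160 in WT, control diet. Its diet difference was 0.45 in KO (limma, adjusted p = 0.00596 with 12 libraries and 0.0579 with 8) and 0.46 in WT (adjusted p = 0.0274 and 0.472). Batf was called in neither genotype after recentring on the sample median or the median ratio or after quantile normalization. Nor was Batf called in either with age as a covariate. In KO its difference turned negative with the sample median and with quantile normalization. Batf3, required for cross-presenting dendritic cells, differed by 0.61 between genotypes on the Western diet (limma, adjusted p = 0.0235 and 0.23) and by 0.61 between diets in KO (adjusted p = 0.0181 and 0.198). Under the same 3 scalings Batf3 was called in neither of these comparisons. With age as a covariate it was not called between diets in KO. Irf8, which acts with BATF3, differed by 0.90 and 1.37 in these comparisons with 12 libraries (adjusted p = 0.0117 and 0.000436). With 8 libraries these differences were 0.95 and 1.27 (adjusted p = 0.151 and 0.0416), so that only the one between diets stayed called. Summed type 1 dendritic cell markers, of which 4 of 9 were on the panel, were at 322 to 339 normalized counts in KO, Western diet, against 167 to 238 in WT, Western diet, and 134 to 186 in KO, control diet. Batf3 and Irf8 are among these markers, so the sums are not separate from the levels of both genes. The part of such cells in these differences was not tested.

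Of stress response genes 5 were tested. Cdkn1a, the p21 cell cycle inhibitor, shared with Nfil3 a higher level in KO on the control diet, at 203, 725 and 493 normalized counts in KO against 75.9, 66.0 and 68.5 in WT (difference 2.56, adjusted p = 0.000711 with 12 libraries and 0.196 with 8). It was at 713, 529 and 659 in KO, Western diet, and at 284, 213 and 257 in WT, Western diet, above the WT, control diet libraries. Hamp, the iron hormone hepcidin, was at 17096, 11185 and 14247 normalized counts in KO, Western diet, against 24506, 53765 and 37636 in KO, control diet (difference -1.40, adjusted p = 0.00176 with 12 and 0.0719 with 8).

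Over the 48 tested genes of all lists, 14 were higher and 0 lower in KO than in WT on the Western diet (29.2% called against 35.5% of all genes, median difference 0.23 against 0.26 over all genes), and 4 were higher on the control diet (8.33% against 2.87%, median 0.10 against 0.07). Between diets 11 were higher and 2 lower in KO (27.1% against 45.3%, median 0.18 against 0.27), and 3 higher and 2 lower in WT (10.4% against 8.61%, median 0.17 against 0.09). The direction of these calls depended on the scaling. In the comparison of genotypes on the Western diet 0 were higher and 13 lower after recentring on the sample median, 3 and 2 after the median ratio, and 1 and 2 after quantile normalization. For diets in KO the split was 1 higher and 26 lower, 5 and 9, and 3 and 16 under these scalings, and 27 and 2 on the CPM scale; for diets in WT it was 2 and 8, 2 and 3, 2 and 1, and 3 and 0. The median of all genes in the diet comparison in KO was -0.46, 0.00, -0.06 and 0.54 under the same scalings. With limma on 8 libraries 0, 0, 2 and 0 were called, and 9, 7, 13 and 6 had an unadjusted p under 0.05. No list gene was called for the interaction with 12 libraries by limma (14 at an unadjusted p under 0.05, and 5 called with voom), where 1.32% of all genes were called (1.10% higher and 0.221% lower), or with 8 (6 at an unadjusted p under 0.05).

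**Figure D5:**
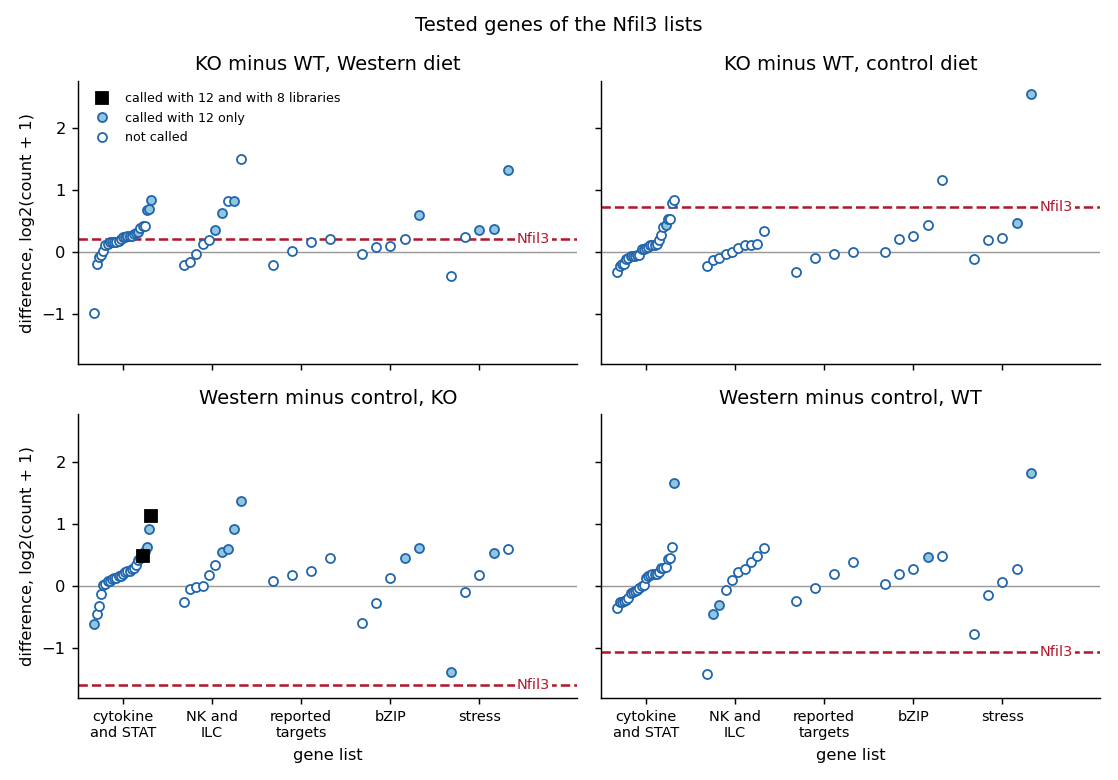
Log2 difference of each tested list gene in 4 comparisons, by list (a gene in several lists is drawn in each); squares were called with 12 and with 8 libraries, filled circles with 12 only and open circles not. The squares are Il10ra and Jak2 in the diet comparison in KO, and the dashed line is Nfil3 (-1.60 there, below all list genes drawn).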

How the data were processed

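Total RNA was extracted with Trizol and measured with barcoded probes, per the labels' protocols. The authors' deposited workbook holds normalized counts as log2 values, with log2 fold changes and p-values of 1 comparison; the normalization software and reference genes are not given in the sources used here. Its columns were matched to animals by its header lines. Within a library 100% of the values were whole multiples of 1 step (tolerance 0.001), which gave recovered counts of 440842 to 643638 per library.

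Values were returned to the linear scale and log2(value + 1) was taken, so that fold changes of weakly expressed genes come out too small. Genes averaging at least 20 normalized counts (453 of 547) were fitted with limma 3.58.1 in R 4.3.3 (1 mean per group, variance trend), two-sided, with Benjamini-Hochberg adjustment over all tested genes and a threshold of 0.05. "Called" means an adjusted p under 0.05. The script was tested on simulated data. Nfil3 itself was not tested. The deposited values are on a log2 scale, and voom on the recovered counts was the alternative that starts from counts; no negative binomial model was run.

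The library numbered 3 of each group lay near the mean of the others. The differences, the calls and the r over all libraries were therefore also computed without these 4. The marker sums, the r within diets and the r of deviations from group means were not. The alternatives with 8 libraries and as CPM of recovered counts were added after seeing the data. Replicate numbers follow deposited order and only name libraries. Named genes were Nfil3, the 6 genes with the highest and the 3 with the lowest r with it, the 3 highest by deviations from group means, up to 4 called genes per list and comparison, and a fixed set of regulators. The result of 1 list gene is not reported here, and that gene was left out of the lists' counts. Members and lists were chosen with earlier results of these data known. Motifs were searched in RefSeq promoter windows of GRCm38.p6.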

Additional observations from a re-analysis of the deposited data

Results flagged for a closer look

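The diet difference of Cfd (adipsin), the gene least like Nfil3, differed between genotypes: Western minus control diet in KO less that in WT was 2.54 on the log2 scale (SE 0.34, limma interaction term, adjusted p = 0.00427 over 453 genes with 12 libraries). With the 4 libraries numbered 3 left out it was 2.47 (SE 0.55, adjusted p = 0.451). All 3 libraries of either genotype were higher on the Western diet.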

How the results depend on the processing

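No paired analysis was possible because the labels give the groups no shared replicate numbers. The main limit is that the libraries numbered 3 lie near the mean of the other pair. Leaving out those 4 reduced the list genes called to 0 (from 14, KO minus WT, Western diet), 0 (from 4, KO minus WT, control diet), 2 (from 13, diets in KO) and 0 (from 5, diets in WT); the median SE of these differences over all genes was 0.27 with 8 libraries and 0.20 with 12, and fewer samples also leave fewer degrees of freedom. Leaving out 1 library in turn does not remove this dependence.

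In the order KO minus WT on the Western diet, KO minus WT on the control diet, diets in KO, diets in WT and interaction, leaving out 1 library gave Nfil3 differences of 0.09 to 0.34, 0.65 to 0.82, -1.72 to -1.47, -1.16 to -0.99 and -0.65 to -0.40, and 6 to 15, 1 to 9, 12 to 17, 0 to 8 and 0 to 8 list genes called. The count was 6 without WT, Western diet library 2 (KO minus WT, Western diet), 1 without KO, control diet library 3 and 9 without KO, control diet library 1 (KO minus WT, control diet), 0 without WT, Western diet library 3 and 8 without WT, Western diet library 2 (diets in WT), and 8 without KO, control diet library 1 (interaction).

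The Nfil3 difference between genotypes on the Western diet turned to -0.35 (recentred on the sample median), -0.037 (median ratio) and -0.22 (quantile). The diet difference in KO moved to -2.32, -1.86 and -2.05 under these, -1.31 with voom and -1.32 on the CPM scale, and in WT to -1.35 (sample median). The control-diet genotype difference was 0.45 with voom and 0.46 on the CPM scale. The interaction was -0.97, -0.72, -0.95, -0.30 and -0.31 under the same 5 settings. With the value table the differences were 0.72, 0.19, 0.68, 0.16 and 0.52, the last 3 reversed, and no list gene was called; that table moves each animal's values to another animal.

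List genes called were, for KO minus WT on the Western diet, 5 (median ratio), 3 (quantile), 7 (voom), 7 (without WT, Western diet library 2 and KO, control diet library 2) and 6 (CPM). For KO minus WT on the control diet they were 1 (sample median), 7 (median ratio), 1 (age as a covariate) and 1 (equal-variance test). For diets in KO they were 27 (sample median, 26 of them lower), 6 (age), 29 (voom) and 29 (CPM, 27 of them higher). For diets in WT they were 10 (sample median), 3 (quantile), 2 (age), 10 (without both those libraries) and 3 (CPM). For the interaction they were 8 (sample median), 4 (median ratio), 5 (voom), 1 (equal-variance) and 3 (CPM). Of the 6 genes most like Nfil3, 3 stayed under quantile normalization and 3 to 6 when 1 library was left out, 3 without KO, control diet library 1. The r of Bst2 turned to 0.10 (sample median). The cause of these changes was not tested.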
